A study of Arabidopsis thaliana with 21 samples.

Results

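The genes described here are the snoRNA, snRNA and rRNA genes of Arabidopsis thaliana, taken from the TAIR10 annotation deposited with the series as every gene line whose note reads snoRNA, snRNA or rRNA. They were 99 of the 33602 annotated loci (0.295%): 71 snoRNA genes, 13 snRNA genes and 15 rRNA genes. The series holds 21 poly(A)-selected, strand-specific RNA libraries of accession Col-0, grown with 16 h of light per day at 20 °C. Leaf, herbaceous stem and cambium stem were sampled from wild type (WT) and from soc1-ful, whose label names the flowering regulators SOC1 and FUL. Wood stem was sampled from soc1-ful alone, which makes 7 groups, each of 3 libraries. The deposited file holds gene positions only, and its score column was empty on all 590264 lines. No level, fold change or test between the groups is therefore given, and every value below is a length, a distance, a count or a sequence match.

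Small nucleolar RNAs (snoRNAs) work in ribosome production. Box C/D snoRNAs pair with rRNA and direct 2′-O-methylation, box H/ACA snoRNAs direct pseudouridylation, and U3 is needed for cutting the precursor of the small ribosomal subunit RNA. Small nuclear RNAs (snRNAs) form the core of the spliceosome: U1 recognises the 5′ splice site, U2 the branch point, and U4 chaperones U6 into the catalytic centre, while U12 and U6atac serve the minor class of introns. In their mature forms these RNAs and the rRNAs carry no poly(A) tail. In plants many snoRNA genes stand in tandem groups that are transcribed together, and rRNA genes are present in the nucleus, the chloroplast and the mitochondrion.

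The cluster of 4 related snoRNA genes on chromosome 4 shows the layout of a box C/D gene and is printed for that reason. Capitals mark box C (TGATGA) and the terminal box D (CTGA). The sequence is that of the TAIR10.1 assembly (RefSeq) at TAIR10 positions, written 5′ to 3′ on the strand of the gene, as are all sequences below.
AT4G39361 (chr4:18304891-18305010, plus strand): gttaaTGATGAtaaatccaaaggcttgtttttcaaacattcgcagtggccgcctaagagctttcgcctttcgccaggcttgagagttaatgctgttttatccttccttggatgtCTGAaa
AT4G39363 (chr4:18305256-18305375, plus strand): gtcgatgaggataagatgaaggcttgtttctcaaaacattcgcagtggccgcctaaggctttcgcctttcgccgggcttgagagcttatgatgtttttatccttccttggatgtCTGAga
AT4G39364 (chr4:18305415-18305536, plus strand): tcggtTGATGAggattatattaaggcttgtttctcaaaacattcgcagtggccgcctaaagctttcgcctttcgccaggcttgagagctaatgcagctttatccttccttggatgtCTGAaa
AT4G39366 (chr4:18305585-18305704, plus strand): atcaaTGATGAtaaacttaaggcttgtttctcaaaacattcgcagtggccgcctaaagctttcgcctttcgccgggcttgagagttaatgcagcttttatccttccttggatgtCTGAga

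In 3 of these genes box C began at base 6 and box D ended 2 bases before the 3′ end. AT4G39363 had the same terminal box D, but no exact box C, and held a match with 1 mismatch starting at base 3. The 4 genes were 120, 120, 122 and 120 bp long, were separated by 245, 39 and 48 bp, and were 87.0% to 90.2% identical in pairs.

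Exact boxes were present in most snoRNA genes. A box C followed by a box D within 20 bases of the 3′ end was found in 57 of the 71 genes (80.3%). Box C was allowed anywhere before that box D, and in AT2G35747 it began as late as base 56. Of 2832144 windows of 84 bases, the median snoRNA gene length, laid end to end over both strands of the nuclear chromosomes, 0.303% held such a pair. Counted from the annotated gene ends, the boxes of most of these genes also sat at the same place. Box C began at base 6 in 49 genes, box D ended 2 bases before the 3′ end in 48, and both applied to 47 genes (66.2%). The same held for 3 windows in the genome (0.000106%), but windows were laid without regard to boxes. Whether the gene ends had been drawn from the boxes was not tested. The 57 genes ran from 72 to 130 bp with a median of 83 bp, and the other 14 from 78 to 702 bp with a median of 111 bp. With 1 mismatch allowed in box C, 5 of those 14 genes also gave a pair.

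**Figure D1:**
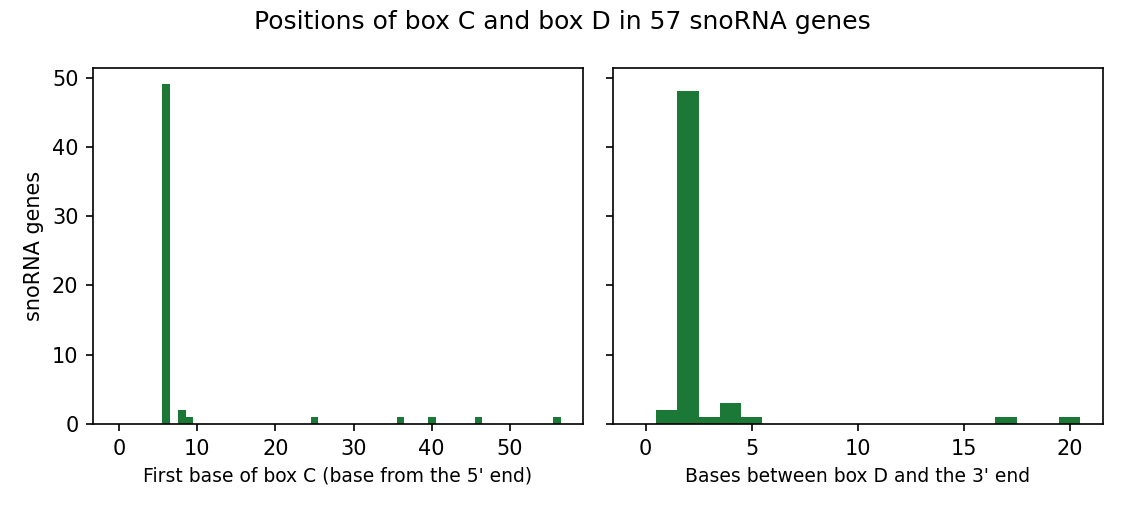
Number of snoRNA genes by the first base of box C, counted from the 5′ end (left), and by the number of bases between box D and the 3′ end (right), in the 57 genes with both boxes. The bars at base 6 (49 genes) and at 2 bases (48 genes) hold most of the set.

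The box that defines the other class was at the level of its background. An ACA placed 6 bases before the 3′ end, with 3 bases of leeway, was found in 8 snoRNA genes (11.3%) and in 12.5% of the genomic windows. Of these 8 genes, 5 also had a box C/D pair. The other 3 were SNOR95 (AT1G26233, 135 bp), SNOR77 (AT5G10572, 133 bp) and AT3G24614 (140 bp), each longer than every gene with a box C/D pair. The letters alone do not show which class a gene belongs to.

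The length of the 71 snoRNA genes ran from 72 bp (AT5G66567) to 702 bp (U3B, AT5G53902), with a median of 84 bp. Of these, 52 were under 100 bp and 69 lay between 70 and 140 bp. The 2 exceptions were both genes of U3, U3B and U3D (AT5G54075, 361 bp). Median GC content was 38.2% in snoRNA genes and 39.0% in snRNA genes, against 36.0% over the nuclear chromosomes. The snRNA genes were longer, from 162 to 916 bp with a median of 793 bp. The rRNA genes spanned the widest range, from a chloroplast gene of 103 bp to one of 2810 bp.

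**Figure D2:**
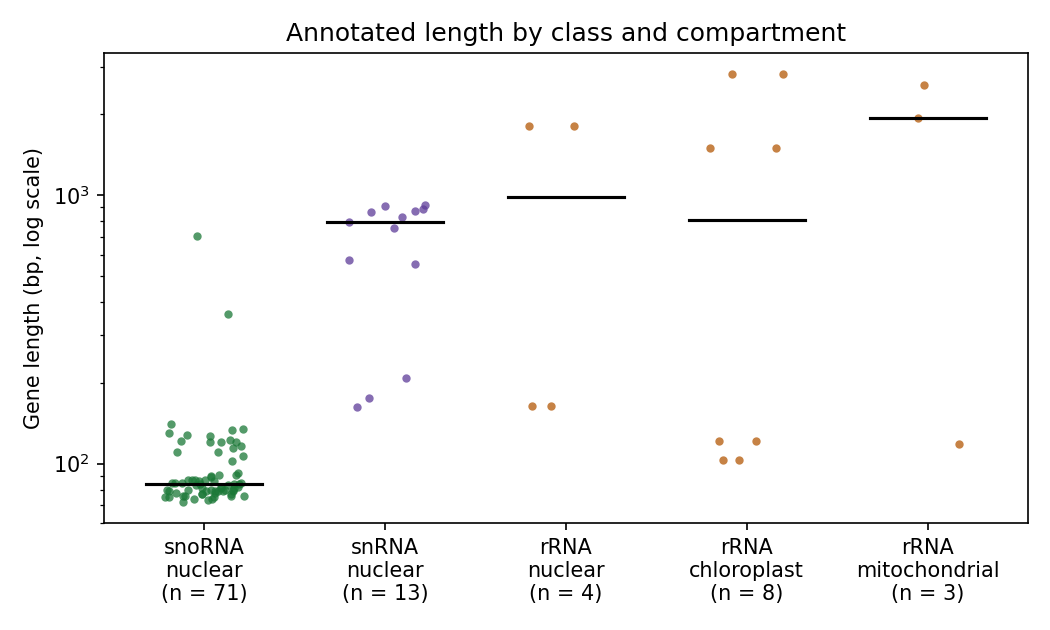
Annotated gene length in bp on a log scale for each class and compartment. Points are genes, spread sideways at random, and bars are medians. The snoRNA genes gather around 84 bp with U3D and U3B above them, and 10 of the 13 snRNA genes lie above 500 bp.

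Clusters were defined as genes with at most 1000 bp between neighbours, on either strand. Of the 71 snoRNA genes, 41 (57.7%) fell into 16 clusters: 9 of 2 genes, 5 of 3 and 2 of 4. In all 16 clusters every gene had the same strand. The 25 gaps between neighbours ran from 31 to 350 bp with a median of 76 bp, and 22 were under 150 bp. For comparison by the same rule, 24.1% of the 631 nuclear tRNA genes and 11.3% of the 177 microRNA genes were clustered, and 16 of 20 tRNA clusters were on a single strand. None of the 13 snRNA genes had another snRNA gene within 1000 bp. A limit of 500 bp left the number of clustered genes of all classes at 53, as did counting each strand on its own, and 5000 bp gave 56.

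**Figure D3:**
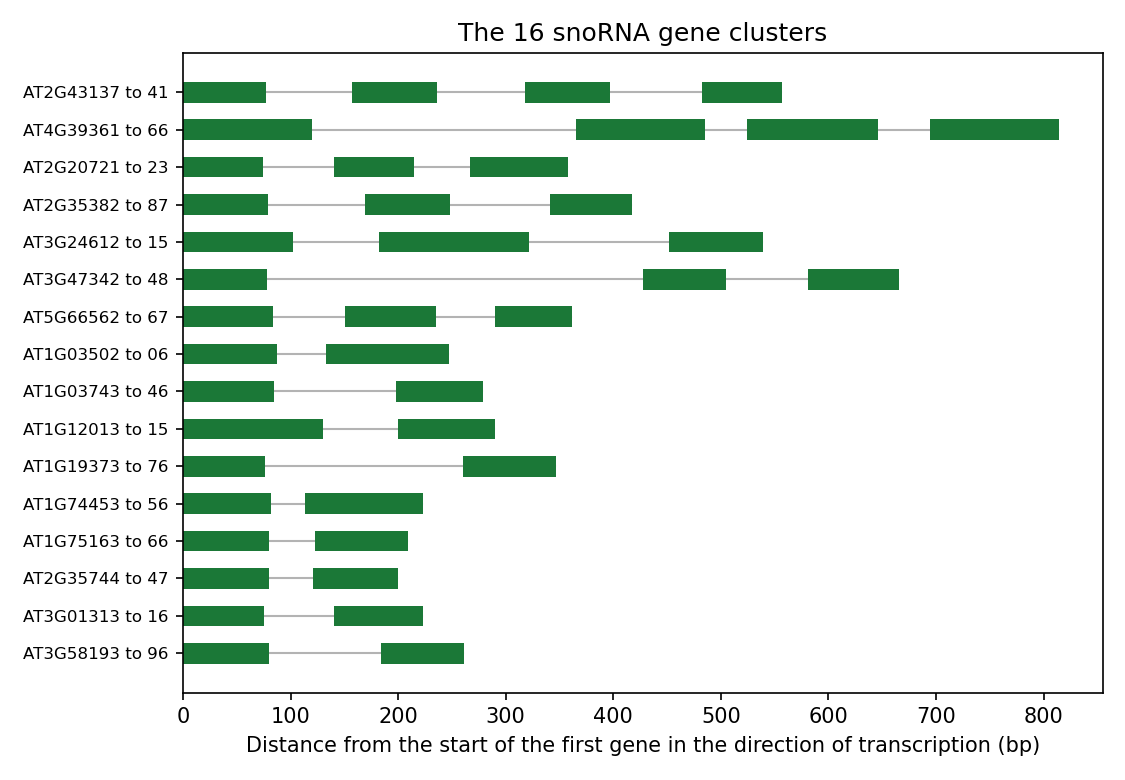
The 16 snoRNA gene clusters, each drawn in the direction of transcription from the start of its first gene (bp). Boxes are genes and lines the gaps between them. Row labels give the loci in chromosome order, and most gaps are shorter than the genes beside them.

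The 5 clusters of 3 genes were AT2G20721 to AT2G20723 (358 bp in all), AT2G35382, AT2G35384 and AT2G35387 (417 bp), AT3G24612, AT3G24614 and AT3G24615 (539 bp), AT3G47342, AT3G47347 and AT3G47348 (666 bp), and AT5G66562, AT5G66564 and AT5G66567 (362 bp). At 80% identity or more over the whole gene, 4 of the 16 clusters held related copies, among them both clusters of 4 genes.

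Placement inside introns was the exception. Of the 71 snoRNA genes, 6 (8.45%) lay wholly in an intron of a coding gene on the same strand, by the first listed isoform, and 0 of the 13 snRNA genes did. The share was 1.11% for nuclear tRNA genes and 7.34% for microRNA genes. The 6 genes had 3 hosts. U60.1F (AT5G52471, 74 bp) lay in FIB1 (AT5G52470) and U60.2F (AT4G25631, 73 bp) in FIB2 (AT4G25630). FIB1 and FIB2 encode fibrillarin, the methyltransferase of the box C/D snoRNA particle. The other 4 genes, AT2G43137, AT2G43138, AT2G43139 and AT2G43141, shared an intron of AT2G43110, which RefSeq names a subunit of the U3-containing 90S pre-ribosomal complex.

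In each host the intron used was its longest. Both fibrillarin genes carried the snoRNA in intron 5 of 6. That intron measured 671 bp in FIB1, where the median intron had 97.5 bp, and 414 bp in FIB2, where the median was 90 bp. U60.1F began 244 bp after the 5′ splice site and ended 353 bp before the 3′ splice site. U60.2F began 107 bp after the first and ended 234 bp before the second. AT2G43110 held its 4 snoRNA genes in intron 3 of 5, which had 906 bp against a median of 100 bp, and the genes began 166, 323, 484 and 648 bp after its 5′ splice site. A seventh gene, SNOR95, lay in intron 1 of 12 of the second listed isoform of AT1G26230, a chloroplast chaperonin gene, and outside its first listed isoform.

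The intronic sequences are printed because they show 2 kinds of copy, between hosts and within a host. Capitals mark box C and the terminal box D.
U60.1F, AT5G52471 (chr5:21295736-21295809, plus strand): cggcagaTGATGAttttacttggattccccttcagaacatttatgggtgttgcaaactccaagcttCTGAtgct
U60.2F, AT4G25631 (chr4:13075563-13075635, plus strand): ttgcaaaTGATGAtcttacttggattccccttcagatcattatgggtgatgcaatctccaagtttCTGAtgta
AT2G43137 (chr2:17923081-17923157, plus strand): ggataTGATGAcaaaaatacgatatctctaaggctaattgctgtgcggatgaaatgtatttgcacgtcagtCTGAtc
AT2G43138 (chr2:17923238-17923316, plus strand): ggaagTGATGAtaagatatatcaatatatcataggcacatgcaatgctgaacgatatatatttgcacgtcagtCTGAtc
AT2G43139 (chr2:17923399-17923477, plus strand): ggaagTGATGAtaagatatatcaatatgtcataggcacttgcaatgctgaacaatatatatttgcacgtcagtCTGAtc
AT2G43141 (chr2:17923563-17923637, plus strand): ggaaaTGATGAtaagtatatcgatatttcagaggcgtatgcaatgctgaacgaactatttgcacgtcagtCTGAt

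U60.1F and U60.2F were identical at 63 of 74 aligned positions (85.1%), and both had box C at base 8 rather than base 6. Among the genes inside AT2G43110, AT2G43138 and AT2G43139 were 96.2% identical, AT2G43141 was 86.1% and 83.5% identical to them, and AT2G43137 was 74.4% to 76.2% identical to the other 3. All 4 ended with the same 14 bases before box D. The proteins of these particles were looked up as possible hosts: 2 of 9 box C/D proteins, 0 of 5 box H/ACA proteins and 0 of 6 spliceosomal proteins hosted a snoRNA gene or had one within 1000 bp, while 9, 4 and 6 of them had an intron.

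Bases able to pair with rRNA were searched for next to CTGA, since in a box C/D snoRNA the guide lies just before box D or its internal copy D′ and, as textbook knowledge, the rRNA base paired with the fifth base before the box is the one methylated. A perfect complement of at least 10 bases to the annotated 18S or 5.8S gene, ending at most 1 base before CTGA, was present in 20 of the 57 genes with both boxes (35.1%). Of all 92 CTGA words in these genes, 21.7% had one, against 0.388% of 812296 CTGA words in the nuclear genome. No gene line for a large subunit rRNA stands in the nuclear annotation, although by background knowledge its sequence follows the 5.8S gene. With the 4000 bp after the 5.8S gene of chromosome 2 added, 34 genes (59.6%) had a complement. It stood before 40.2% of their 92 CTGA words, against 1.05% of those in the nuclear genome. The chromosome 3 copies of these targets, 98.8% identical over the stretch after 5.8S, also gave 34 and are not an independent count.

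**Figure D4:**
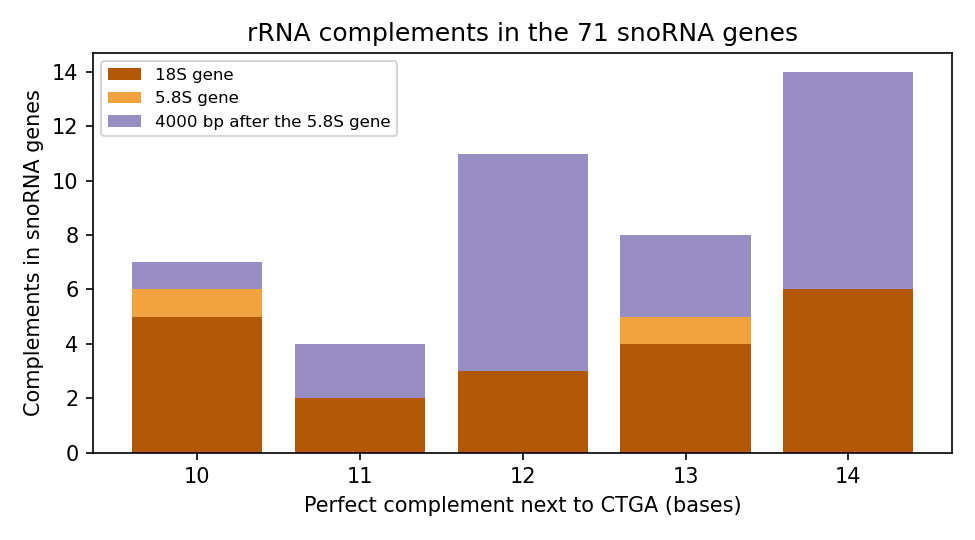
Number of perfect complements of 10 to 14 bases next to CTGA in the 71 snoRNA genes, stacked by target. Of 44 complements, 20 matched the 18S gene, 2 the 5.8S gene and 22 the 4000 bp after it, and 14 reached 14 bases.

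The complements of 14 bases, the longest found, are shown with the CTGA in capitals. The single capital before it marks the fifth base upstream, and positions in rRNA are counted from 1 at the start of the gene line. In the strings for 18S base 162 and for positions 8784 and 6947, the last base before CTGA lies outside the complement.
AT4G39361, AT4G39363, AT4G39364 and AT4G39366, paired with 18S base 418: ccttccttgGatgtCTGA
AT3G58193 and AT3G58196, paired with 18S base 162: acgtattagcTctatCTGA
AT2G43137, AT2G43138, AT2G43139 and AT2G43141, paired with chromosome 2 position 7018: atttgcacgTcagtCTGA
AT1G03743 and AT5G44286, paired with chromosome 2 position 8784: atcttaggacAccttCTGA
AT4G26365, paired with chromosome 2 position 7580: taccaccaaGatctCTGA
AT2G35747, paired with chromosome 2 position 6947: caccatctttCgggaCTGA

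In the genes with both boxes, 18S was matched by 18 genes at 11 positions, 8 times before the terminal CTGA and 10 times before an internal one. The 5.8S gene was matched by AT1G03746, with 13 bases placing base 47 opposite the fifth base, and by AT2G35747, with 10 bases placing base 79 there. The stretch after 5.8S was matched by 17 genes at 10 positions. Across all 71 genes, the complements gave 27 positions, and 12 of these were shared by 2 to 4 genes. The cluster on chromosome 4 was 1 of the 2 cases with 4 genes at the same position, and the cluster inside AT2G43110 was the other.

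In 3 genes with both boxes a complement stood before an internal CTGA and another before the terminal one. In 1 of them, AT2G35747, the internal CTGA lay before the counted box C, which began at base 56. That gene also had a match to box C with 1 mismatch at base 6. AT1G32385 is printed with 2 genes of the cluster AT2G35382 to AT2G35387, because it held in a single gene what those 2 held separately.
AT1G32385 (chr1:11685060-11685144, plus strand): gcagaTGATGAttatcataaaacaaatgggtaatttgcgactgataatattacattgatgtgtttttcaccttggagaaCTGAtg
AT2G35382 (chr2:14894380-14894455, minus strand): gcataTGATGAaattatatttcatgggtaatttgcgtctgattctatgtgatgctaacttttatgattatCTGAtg
AT2G35384 (chr2:14894549-14894627, minus strand): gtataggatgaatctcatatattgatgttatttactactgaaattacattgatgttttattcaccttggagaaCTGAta

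Before its internal CTGA, AT1G32385 had 13 bases that pair with 18S and place base 440 opposite the fifth base (tgggtaattTgcgaCTGA). AT2G35382 had the same 13 bases (tgggtaattTgcgtCTGA). Before its terminal CTGA, AT1G32385 had 13 bases that place position 7993 of chromosome 2 there (ttcaccttgGagaaCTGA), and AT2G35384 had the same 13 bases. AT1G32385 and AT2G35384 were 75.3% identical over their length. AT2G35384 has no exact box C. In these strings, the last base before CTGA lies outside the 13 bases of the complement.

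At 80% identity or more over the whole gene, 26 of the 71 snoRNA genes formed 11 families. Of the 26 genes, 17 had a copy outside their own cluster and 9 had copies inside it alone. At 90% identity 14 genes formed 6 families, and at 70% 39 genes formed 17. Of the 11 families at 80%, 3 lay inside a single cluster, 4 on 1 chromosome in separate places, and 4 on different chromosomes. Copies were sought among the 71 genes alone, so copies elsewhere in the genome were not counted. Within this set the closest snoRNA copies were AT1G03506 and AT1G03935, identical at 86 of 87 positions. AT3G50825 on chromosome 3 was 91.7% and 94.0% identical to AT5G66562 and AT5G66564, neighbours on chromosome 5 that were 96.4% identical to each other.

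The 3 sequences show where this family differs.
AT5G66562 (chr5:26567370-26567453, plus strand): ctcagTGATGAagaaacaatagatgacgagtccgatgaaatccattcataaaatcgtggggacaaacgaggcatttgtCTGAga
AT5G66564 (chr5:26567521-26567604, plus strand): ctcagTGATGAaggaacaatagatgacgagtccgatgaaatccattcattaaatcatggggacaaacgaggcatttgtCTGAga
AT3G50825 (chr3:18893404-18893484, minus strand): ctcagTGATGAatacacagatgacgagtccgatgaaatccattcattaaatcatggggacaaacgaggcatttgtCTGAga

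All 3 end with the same 12-base complement that places position 8415 of chromosome 2 opposite the fifth base, and AT3G50825 is 3 bp shorter, with 81 bp against 84 bp. A whole pair of neighbours was also found again. AT1G19373 and AT1G19376, 184 bp apart, matched AT1G75163 and AT1G75166, 43 bp apart, with identities of 74.1% and 87.6%. AT2G35742 and AT2G35744 were 90% identical and lay 2043 bp apart, beyond the cluster limit.

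Near-identical copies bear on how short reads can be assigned. Words of 50 bases that occur again in the genome were present in 25 of the 88 nuclear genes: 10 of 71 snoRNA genes, 11 of 13 snRNA genes and all 4 rRNA genes. The share over all annotated genes was not counted, so whether these counts are high or low is not known. A gene was counted if at least 1 of its words occurred again. In 2 snoRNA genes, AT1G03502 and AT3G47342, every word of 50 bases occurred again. In SNOR37-2 (AT4G15258) 98.7% of the words did, in AT3G24615 66%, in U3D 56.4% and in U3B 22.1%. The share was 46.9% in AT3G50825, 42.9% in AT5G66564, 11.3% in AT4G39366 and 11% in AT4G39364. In the 11 snRNA genes it ran from 4.4% (AT5G46315) to 31.9% (AT1G08115), counted over the whole gene line. In the 10 snRNA lines over 500 bp, the RNA itself filled 11% to 35.4% of the line. The share of repeated words within the RNA alone was not counted. In the 4 rRNA genes it was 94.3% or 100%.

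The snRNA gene lines held more than the RNA. Of 13 lines, 10 were over 500 bp, with a median of 847 bp, while the RNA that aligned inside them measured 101 to 195 bp. The RNA filled 11% to 35.4% of these lines, with 232 to 588 bp before it and 98 to 500 bp after it. U1.5 (AT1G08115, 162 bp) and U12 (AT1G61275, 175 bp) had lines as long as the RNA. U6acat (AT5G40395, 208 bp) had 92 bp before an aligned stretch of 116 bp that was 85.5% identical to its closest model, the weakest match of the set. In the newer TAIR10.1 annotation 5 of the 13 lines had other ends: U4.2 went from 574 to 153 bp, U6-26 from 916 to 101 bp, U6-1 from 793 to 101 bp, U2.5 from 752 to 195 bp and U1.5 from 162 to 165 bp. The other 8 lines were unchanged.

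**Figure D5:**
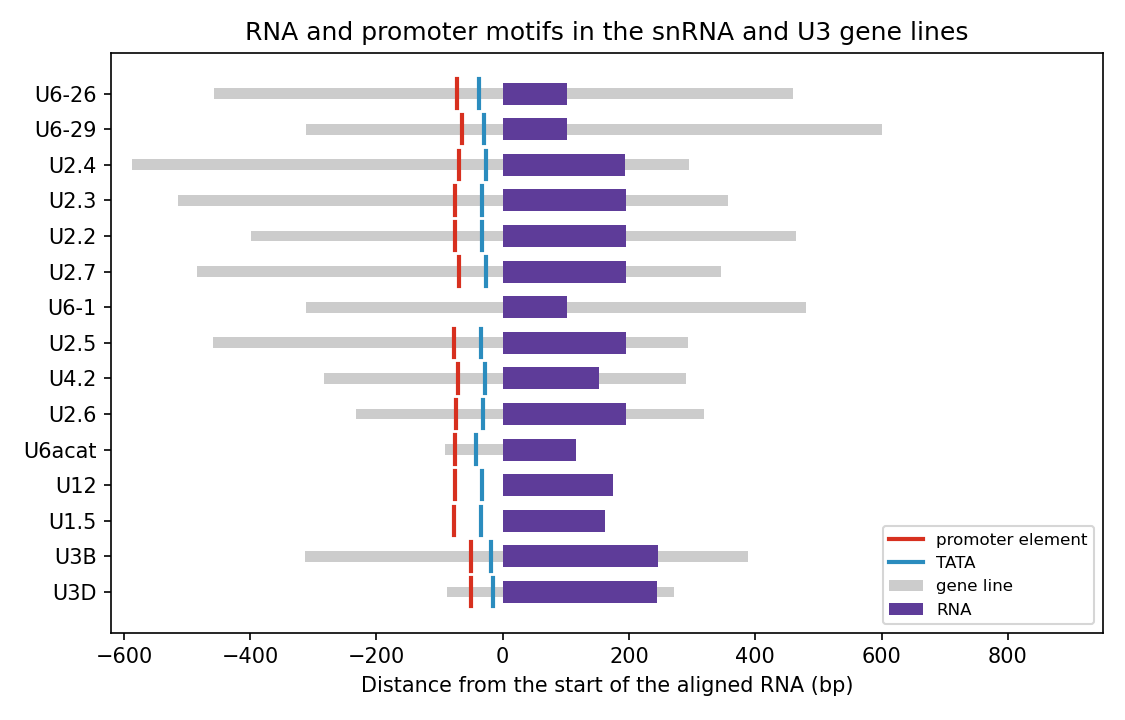
The 13 snRNA gene lines and the 2 U3 gene lines (grey), with the aligned RNA (purple), the promoter element CCCACATCG (red) and TATA (blue), placed by distance in bp from the start of the aligned RNA. For U3B and U3D, purple marks the stretch aligned between the 2 genes. The RNA fills a small part of the 10 snRNA lines over 500 bp. The element and TATA stand at a similar place in 14 of the 15 genes.

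In plants, snRNA genes carry an upstream sequence element followed by a TATA box, and the spacing between them is known to differ between genes read by RNA polymerase II and those, such as U6, read by RNA polymerase III. The element CCCACATCG was searched for on the strand of the gene. In the 300 bp before the gene line it was found in 2 of 13 snRNA genes, U1.5 and U12, and in 0.0809% of 27205 coding genes. In the 300 bp before the aligned RNA, a search added after the gene lines had been seen to exceed the RNA, it was found in 12 of 13 genes, in 10 of them inside the gene line. U6-1 was the gene without it. The stretches from the element to the RNA are printed with the element and TATA in capitals. For U3B and U3D they end where the alignment between these 2 genes begins.
U1.5, AT1G08115 (chr1:2538238-2538314, minus strand): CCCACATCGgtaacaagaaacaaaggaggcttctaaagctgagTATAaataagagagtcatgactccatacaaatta
U2.6, AT3G56705 (chr3:21004417-21004490, plus strand): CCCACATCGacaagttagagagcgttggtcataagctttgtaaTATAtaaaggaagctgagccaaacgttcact
U2.4, AT3G56825 (chr3:21042022-21042091, minus strand): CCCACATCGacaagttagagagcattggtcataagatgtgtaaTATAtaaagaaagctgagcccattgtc
U2.2, AT3G57645 (chr3:21346665-21346740, plus strand): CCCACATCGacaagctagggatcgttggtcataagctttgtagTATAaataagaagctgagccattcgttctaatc
U2.3, AT3G57765 (chr3:21397619-21397694, minus strand): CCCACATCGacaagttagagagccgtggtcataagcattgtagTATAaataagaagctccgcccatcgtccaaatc
U2.5, AT5G09585 (chr5:2974937-2975013, plus strand): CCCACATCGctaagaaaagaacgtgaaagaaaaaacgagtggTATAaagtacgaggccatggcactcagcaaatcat
U2.7, AT5G61455 (chr5:24713610-24713679, minus strand): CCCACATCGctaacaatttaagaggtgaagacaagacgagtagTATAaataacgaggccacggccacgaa
U4.2, AT3G06900 (chr3:2178344-2178414, minus strand): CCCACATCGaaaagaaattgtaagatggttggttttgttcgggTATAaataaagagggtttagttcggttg
U12, AT1G61275 (chr1:22603045-22603120, plus strand): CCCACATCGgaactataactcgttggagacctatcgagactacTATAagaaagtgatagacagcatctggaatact
U6-26, AT3G13855 (chr3:4561040-4561111, plus strand): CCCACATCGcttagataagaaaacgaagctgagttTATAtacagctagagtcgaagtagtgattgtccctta
U6-29, AT5G46315 (chr5:18787326-18787389, plus strand): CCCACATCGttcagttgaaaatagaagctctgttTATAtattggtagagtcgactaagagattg
U6acat, AT5G40395 (chr5:16166296-16166371, minus strand): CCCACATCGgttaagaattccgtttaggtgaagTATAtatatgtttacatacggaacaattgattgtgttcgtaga
U3B, AT5G53902 (chr5:21888228-21888278, plus strand): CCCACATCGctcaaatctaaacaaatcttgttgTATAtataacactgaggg
U3D, AT5G54075 (chr5:21945621-21945670, minus strand): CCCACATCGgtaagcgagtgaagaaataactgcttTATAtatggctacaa

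Counted from the first base of the element to the first base of TATA, the spacing was 42 or 43 bases in the 9 genes of U1, U2, U4 and U12, with 43 in 8 of them. It was 35 bases in U6-26, 34 in U6-29, 33 in U6acat, 33 in U3B and 35 in U3D. The ranges of 42 to 43 and 33 to 35 did not overlap. The distance from TATA to the RNA depends on where the aligned model begins, and in the snRNA genes ran from 27 to 43 bases. In U3B and U3D, the stretch aligned between them began 18 and 15 bases after TATA. The 6 U2 RNAs were 86.2% to 97.4% identical in pairs, with unpaired bases counted as differences. The lowest value, for U2.5 and U2.7, was 175 identical positions over 203 columns, from stretches of 195 bases each. Those stretches began 35 and 27 bases after TATA, so the range includes offset ends as well as substitutions. U6-1 and U6-26 were 98.0% identical. Against U6-29, each had 93 identical positions over 108 alignment columns (86.1%), although these RNAs measured 101 bases each. Unpaired bases were counted as differences in this figure. The aligned stretch began 30 bases after TATA in U6-29 and 37 bases after it in U6-26, so its ends were offset. The U3B and U3D lines aligned over 246 and 244 bp with 98.0% identity.

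In the 300 bp before the gene line, the same element was found for 2 of the 46 single genes and clusters of snoRNA genes (4.35%), SNOR105 (AT1G29071) and SNOR108 (AT5G41471). Their spacing to TATA was 42 and 43 bases. In U3B and U3D, also among the 46, the element lay inside the gene line, as printed above. Among coding genes, 0.0478% had the element followed by TATA at 30 to 60 bases in the same window.
SNOR105, AT1G29071 (chr1:10151775-10151870, minus strand): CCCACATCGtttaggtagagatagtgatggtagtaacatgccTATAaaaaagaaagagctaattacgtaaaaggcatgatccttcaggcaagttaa
SNOR108, AT5G41471 (chr5:16598704-16598795, plus strand): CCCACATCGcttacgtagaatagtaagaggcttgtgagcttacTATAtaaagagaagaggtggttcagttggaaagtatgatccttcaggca

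These 2 genes were 77.4% identical to each other over their length, with 107 and 110 bp.

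The other promoter word examined was the telo box, AAACCCTA on either strand, which is known from promoters of plant genes of the translation machinery. In the 300 bp before the gene line it was found for 16 of the 46 snoRNA genes or clusters (34.8%) and for 6.97% of coding genes. Where transcription of the units starts was not examined. The windows of units and of coding genes may therefore lie at unlike distances from it. Within 150 bp it was found before 5 units (10.9%) and 4.7% of coding genes, and within 1000 bp before 33 units (71.7%) and 14.2% of coding genes. Within 300 bp, among units outside introns of first listed isoforms, 7 of 15 clusters and 9 of 28 single genes had it, and 2 single genes had it more than once. The words TGGGCC and TGGGCT, on either strand, were found within 300 bp before 9 and 10 of 46 units (19.6% and 21.7%), against 15.7% and 14.5% of coding genes. Their place against the background depended on the window: 60.9% and 54.3% of units against 26.1% and 28.6% of coding genes within 1000 bp, and 0% and 6.52% against 11.1% and 9.87% within 150 bp. AT3G21805, with 3 telo boxes at 51 to 214 bp before the gene, is printed with the boxes in capitals.
AT3G21805 (chr3:7682062-7682361, plus strand): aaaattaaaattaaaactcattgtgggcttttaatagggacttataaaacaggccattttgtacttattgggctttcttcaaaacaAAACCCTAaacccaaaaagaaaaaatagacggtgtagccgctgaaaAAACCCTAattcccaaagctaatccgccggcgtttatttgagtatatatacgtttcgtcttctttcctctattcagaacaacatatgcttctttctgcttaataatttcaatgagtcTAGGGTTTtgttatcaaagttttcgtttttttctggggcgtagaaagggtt

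Some gene lines shared exonic bases with other genes. On the same strand 5 of the 99 genes did: AT2G35747, U6-26, U2.4, U2.5 and U2.7. On either strand 12 did, 5 of them snoRNA genes and 7 snRNA genes. The share over all annotated loci was not counted, so whether these counts are high or low is not known. AT2G35747 lay wholly inside an exon of AT2G35750, an uncharacterized coding gene, with 72 of its 80 bases in the 3′ untranslated region and 8 in coding sequence. AT1G07702 (81 bp) and AT3G14475 (121 bp) lay wholly inside coding sequence on the opposite strand, in AT1G07705, of the NOT2/NOT3/NOT5 family, and in AT3G14470, an NB-ARC gene.

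For the snRNA genes, most of the shared bases lay outside the RNA. The aligned RNA itself was covered by exons of another gene in 3 of the 7: all 101 bases of U6-26 by AT3G13857 on the same strand, 101 of the 153 bases of U4.2 by AT3G06895 on the opposite strand, and 77 of the 195 bases of U2.3 by AT3G57770, a protein kinase gene on the opposite strand. The U3 RNAs were not placed by a model, and the stretch aligned between U3B and U3D was used instead. Exons of AT5G53905 on the opposite strand covered 111 bases of this stretch in U3B. Exons of HSFA9, a heat shock factor gene, covered 166 bases of it in U3D, also on the opposite strand.

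All snoRNA and snRNA genes were nuclear, and the rRNA genes were divided among the compartments, with 4 nuclear, 8 chloroplast and 3 mitochondrial. Chromosome 3 held 24 of the 88 nuclear genes, including 7 of 13 snRNA genes, and chromosome 4 held 11, all of them snoRNA genes. Per Mb the nuclear chromosomes carried 0.592 to 1.02 of these genes, the mitochondrion 8.18 and the chloroplast 51.8. The rRNA genes made up 5.86% of the chloroplast sequence and 1.26% of the mitochondrial.

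The nuclear rRNA genes formed 2 identical layouts. On chromosome 2, the 18S gene AT2G01010 (chr2:3706-5513) was followed after 268 bp by the 5.8S gene AT2G01020 (chr2:5782-5945). On chromosome 3, AT3G41768 (chr3:14197677-14199484) was followed after 268 bp by AT3G41979 (chr3:14199753-14199916). The 18S genes had 1808 bp each and differed at 2 positions, T489C and T1327C, given as the chromosome 2 base, the position from the gene start and the chromosome 3 base. The 5.8S genes had 164 bp each and were identical. The 268 bp between them were 98.9% identical, and the 4000 bp after 5.8S 98.8%. On chromosome 2 those 4000 bp held 2 annotated coding genes, AT2G01021 (102 bp) and AT2G01023 (120 bp), both uncharacterized proteins in RefSeq. Of the arrays of rRNA repeats known from this species, these 2 copies are the ones with gene lines.

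The chloroplast carried its rRNA genes as 2 inverted sets of 4 with opposite strands. Each set ran from the 16S gene (1491 bp) through the 23S (2810 bp) and 4.5S (103 bp) genes to the 5S gene (121 bp). All 4 pairs, ATCG00920 with ATCG01210, ATCG00950 with ATCG01180, ATCG00960 with ATCG01170 and ATCG00970 with ATCG01160, differed at 0 positions. In both sets 2188 bp with 2 tRNA genes separated the 16S from the 23S gene, so the 16S gene lay outside the cluster of the other 3 by the limit of 1000 bp. A tRNA gene ended 231 bp before each 16S gene and 152 bp before each 23S gene. None of the 99 genes had a tRNA gene on the same strand within 100 bp upstream, and these 4 were the genes with one within 500 bp. The GC content of these genes, 50.5% to 56.5%, was above the 36.3% of the whole chloroplast.

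The mitochondrion had each rRNA gene once. ATMG01380 (118 bp) and ATMG01390 (1935 bp) lay 170 bp apart. TAIR10.1 has a 5S and an 18S gene of the same lengths and the same spacing. ATMG00020 (2568 bp) lay 12487 bp from ATMG01390 across the end of the sequence, and the remaining rRNA gene of TAIR10.1, of 26S, has 3169 bp. Mitochondrial sequence was not used here, because the deposited build has 366924 bp and TAIR10.1 367808 bp.

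The TAIR10.1 annotation kept the nuclear genes and added others. All 88 nuclear genes were found in it by locus, 83 at the same positions, and it holds 287 snoRNA and 82 snRNA genes. Of its other 216 nuclear snoRNA genes, 56 lay within 1000 bp of one of the 71, beside 29 of their 46 single genes and clusters. In TAIR10.1 75.3% of snoRNA genes were clustered by the rule used above, 50 lay in introns of coding genes on the same strand, and 9 followed a tRNA gene within 100 bp. The other 216 genes were less uniform. A box C/D pair was found in 34.3% of them against 80.3% of the 71. An ACA end was found in 30.6% against 11.3% (12.5% of genomic windows), and 34.7% were longer than 120 bp against 14.1%. These measures depend on the annotated gene ends, and whether the ends of both sets were drawn in the same way was not tested.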

How the data were processed

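The libraries were described from the labels. The study used Trimmomatic 0.0.3, TopHat2 2.0.8 and the build TAIR10, per the submitters' processing notes, which give no role or order. The deposited file, the authors' copy of the TAIR10 annotation per the file headers, holds start and end positions in bp counted from 1 and 0 columns of library values, so depth and expression are not analysed here. Genes, lists and naming rules were chosen with earlier results of these data known. Named after their values were seen were SNOR105, SNOR108, SNOR77, SNOR37-2, AT1G03746, AT1G03502, AT1G32385, AT1G19373, AT1G75163 and AT3G21805. The other snoRNA genes were named by rule: extremes of length, clusters of 3 or more, hosts, shared exonic bases, the longest complements and families.

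Sequence came from TAIR10.1 (RefSeq), where 99.9% of 27206 nuclear and 98.9% of 88 chloroplast coding genes kept an intact reading frame at TAIR10 positions. snRNA gene lines were aligned locally to TAIR10.1 snRNA models of 90 to 200 bp, and U3B to U3D. Global alignments, made where lengths differed by at most 1.5 times, gave identity as identical positions over all alignment columns. Unpaired bases were counted as differences. Scripts used Python 3.11.15, Biopython 1.88 and matplotlib 3.10.9, and their searches were tested on simulated data. No statistical test was run.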

Additional observations from a re-analysis of the deposited data

How the results depend on the processing

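Of 31 alternative values over 14 results, 19 stayed within 1.5 times the reported value and 12 moved. The classes of TAIR10.1 gave 380 genes in place of 99. Exonic bases shared on either strand gave 12 genes in place of 5. A tRNA gene within 500 bp upstream gave 4 genes in place of 0. With no leeway, 1 snoRNA gene had an ACA end in place of 8. At least 12 complementary bases left 12 box C/D genes in place of 20, and adding the 4000 bp after the 5.8S gene gave 34. The promoter element was found before 12 snRNA genes when the search began at the aligned RNA, in place of 2. A window of 1000 bp gave 33 snoRNA genes or clusters with a telo box in place of 16, and 150 bp gave 5. At 90% identity 14 snoRNA genes were in families in place of 26; with the rRNA genes, which kept theirs, the count stayed within 1.5 times. Repeated words of 25 bases were present in 41 nuclear genes and of 100 bases in 15, in place of 25. Longer windows, shorter words and looser rules find more by construction.

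The search before the aligned RNA, the added rRNA targets, the 150 bp window and the families of snoRNA genes alone were chosen after seeing the data. No paired analysis was possible because the file holds no value for any library. With annotation alone, no error over libraries can be given, and counts depend on which genes TAIR10 lists. Ends of the aligned RNAs follow the models used, and those of the U3 stretches follow the alignment of U3B to U3D.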

Other observations

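TAIR10.1 lists a further snRNA gene under the symbol of 4 of the 13 snRNA genes as written, and under another spelling of the symbol of 4 more, 3490 to 17026 bp further along the chromosome. These were AT1G08367 (U12*$) for U12, AT3G08695 for U2.6, AT3G08735 for U2.4, AT3G08945 (U2.2*) for U2.2, AT3G09005 for U2.3, AT5G06055 (U6atac*$) for U6acat, AT5G06815 (U6.29) for U6-29 and AT5G09010 for U2.7. The RNA aligned inside the TAIR10 gene line matched the sequence of the further gene over no more than 11 bases. All 8 are genes whose TAIR10 line kept its ends in TAIR10.1.

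RefSeq names the product of AT2G01020 as 5S and that of AT3G41979 as 5.8S, although the 2 gene sequences of 164 bp were identical and both followed an 18S gene after 268 bp. They are called 5.8S above.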
